A study of Mus musculus with 7 samples.

Results

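Deubiquitinases of the USP and OTU families were examined in sorted Pax7-GFP cells from muscle of normocapnic and hypercapnic mice. Members were taken by symbol, as every gene of the deposited table named Usp followed by a digit, Otud or Otub. This gave 62 of 23930 genes, 52 of them Usp and 10 Otud or Otub. Usp6nl entered by its symbol although it is known as an activator of RAB GTPases and not as a deubiquitinase, and it is reported apart.

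Normocapnia was represented by 3 libraries, named NC1 to NC3, and hypercapnia by 4, named HC1 to HC4. All mice carried the inducible Pax7-GFP reporter, in which a Cre recombinase inserted at the Pax7 gene turns on a green protein for good once tamoxifen is given, so progeny of Pax7 cells and any cell with misplaced recombination stay green. Tamoxifen was given in both groups from 12 weeks of age, when the mice entered room air (normocapnia) or a chamber with 10% CO2 (hypercapnia) for 4 weeks, and cells were collected at 16 weeks. Per the methods, hind leg muscles of both groups were injured with cardiotoxin, a toxin that destroys myofibers, 3 days before collection. The labels do not mention the injury, and the name of the deposited table carries a time of 40 hours that neither they nor the methods of this experiment explain, so the time after injury is uncertain. The labels also give the strain of NC1 as C57BL/6 with a number that climbs by 1 in each next library, while the growth protocol names C57/B6 for all mice. Whether each library came from a separate mouse is not stated, so p-values measure the spread between these libraries.

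Ubiquitin is a small protein that ligases join to other proteins, which can send them to the proteasome or change their traffic and activity. Deubiquitinases cut it off again. USP enzymes form the largest family of these cysteine proteases, OTU enzymes often prefer a certain type of ubiquitin chain, and in muscle such enzymes are known from protein turnover and from the control of signaling in myogenic cells.

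RNA was read with an AmpliSeq panel, 1 short amplicon per gene, and values are in RPM, reads scaled to the same total in every library. RPM compares a gene between libraries, while the order of genes also reflects how well each amplicon works. Library totals ran from 14527445 to 23388710 reads, so that 3 reads stood for 0.128 to 0.207 RPM. NC3 stood apart, with 16.6% of its reads on its 10 most abundant genes against 8.36% to 12.1% in the others. The 10 satellite cell markers summed to 2591, 209 and 102 RPM in normocapnia and to 364, 346, 1044 and 830 RPM in hypercapnia (libraries in order of their number, as throughout), with Pax7 itself between 4.34 RPM (NC3) and 268 RPM (NC1). The 12 macrophage markers summed to 12445 to 35162 RPM, so the labelled identity of the cells was only partly borne out by their markers. Lyz2 alone made up much of that sum, with 8354 RPM (NC1) to 29108 RPM (NC3). Neutrophil (12.9 to 171 RPM), endothelial (41.0 to 434 RPM), fibro-adipogenic (839 to 2166 RPM) and myofiber markers (121 to 2754 RPM) were also present, and lymphocyte markers were nearly absent (0.138 to 2.64 RPM). Xist was at 445 to 701 RPM in NC1, NC2, HC1 and HC2, whereas NC3, HC3 and HC4 were at 0.125 RPM or less and carried the Y-linked Ddx3y at 103 to 206 RPM. In such bulk samples fewer cells of a type and less RNA per cell cannot be told apart.

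Of the whole family, a single member passed the test between hypercapnia and normocapnia. Genes were called at an unadjusted limma p under 0.05 and a fold change above 1.5 on log2(RPM + 1). Usp18 was the single member called higher, and 0 members were called lower. Over all 23930 genes, 1.43% were called higher and 1.14% lower. At any fold, 5 of 62 members had p under 0.05 in limma (all genes, 4.66%), namely Usp18 and Usp25 on the higher side and Usp3, Usp33 and Usp6nl on the lower. All 5 are among the 51 members at a mean of 1 RPM or more, where the share over all such genes was 7.58%. With genes under 1 RPM left out before the limma fit, Usp18 alone kept p under 0.05. After Benjamini-Hochberg adjustment over all genes 0 members passed in limma (lowest adjusted p 0.752), and 0 passed in filtered edgeR (lowest 0.758, shared by 12 members) or DESeq2 (lowest 0.421, Usp18), both over 53 members.

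The fold changes centred on 0, with a median log2 fold change of 0.00 over the 62 members (range -0.76 for Usp34 to 1.47 for Usp18) beside 0.02 over all genes. For the 43 members at a mean of 10 RPM or more it was 0.03, with 22 above and 21 below 0, beside 0.13 for all 8229 such genes. Median-of-ratios scaling moved these medians to -0.08 and -0.01, so the members lay slightly below all such genes under both scalings, and the sign of their own median was not stable. Intervals were wide for many members, reaching from -2.02 to 3.44 for Usp14, so a 1.5-fold difference in either direction could not be resolved in them with 7 libraries.

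**Figure D1:**
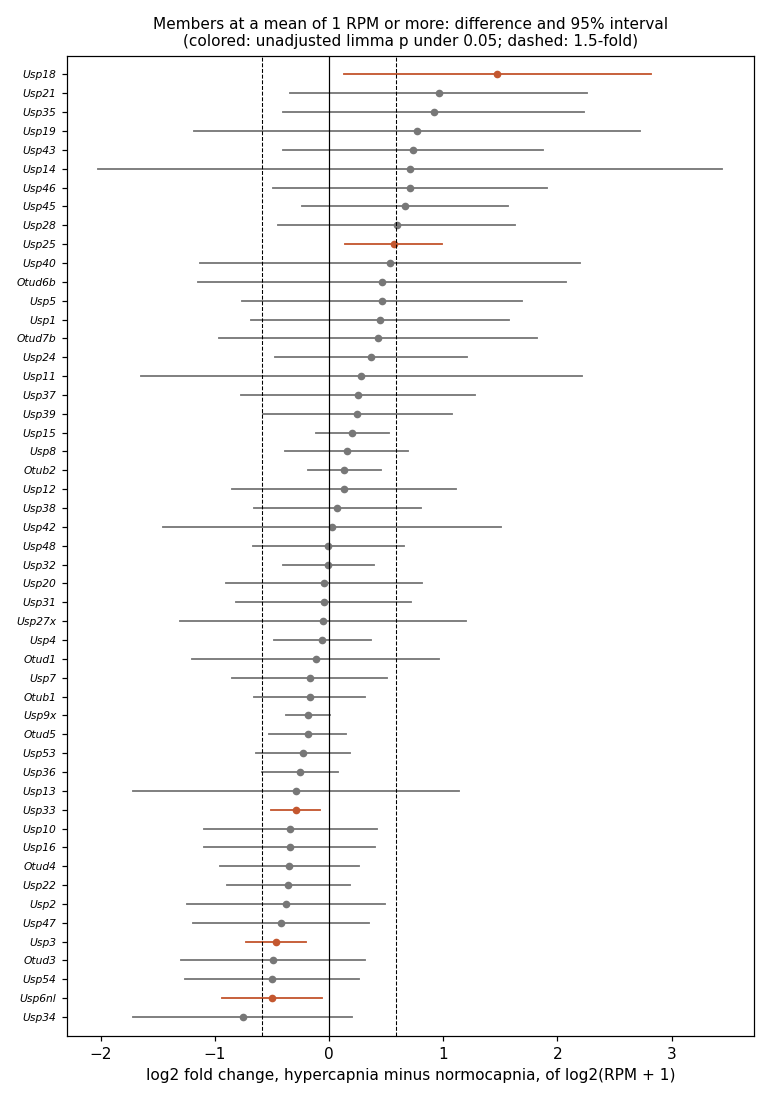
Log2 fold change (x axis, hypercapnia minus normocapnia, of log2(RPM + 1)) with its 95% interval from limma for the 51 members at a mean of 1 RPM or more, 1 gene a row. Colored rows have an unadjusted p under 0.05, dashed lines mark 1.5-fold, and Usp18 is the only colored point beyond them.

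Usp18, the protease that removes the ubiquitin-like protein ISG15 from its targets and also dampens the type I interferon receptor, was the member with the highest fold change. It stood at 6.33, 13.8 and 2.75 RPM in room air and at 23.1, 25.1, 22.5 and 11.2 RPM under high CO2. All hypercapnia libraries but HC4 lay above normocapnia, and HC4 lay below NC2, so the groups overlapped. The log2 fold change was 1.47 (SE 0.54, 95% interval 0.13 to 2.82, limma p = 0.0365, adjusted p 0.915), a 2.78-fold difference, and an exact permutation test over the 35 splits gave p = 0.0857, two-sided, where 0.0286 is the smallest possible. Among the Xist-high libraries HC1 and HC2 were above NC1 and NC2, and among the others HC3 and HC4 were above NC3. The call was lost when NC1, NC3, HC1, HC2 or HC3 was left out (unadjusted limma p 0.081 to 0.0931). Without NC3 the log2 fold change was 0.98, and without the other 4 in turn it stayed between 1.36 and 1.47. It was kept in edgeR (1.39) and DESeq2 (1.36).

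A list of 8 genes of ubiquitin and the ISG15 pathway held 3 that were measured, and 2 of these were called higher, against 2.66% of all genes averaging at least 1 RPM. The list was chosen with earlier results of these data known, so this share is no independent test of it. Uba7, the enzyme that activates ISG15, was at 20.9, 21.7 and 9.64 RPM in normocapnia and 41.9, 46.9, 25.4 and 30.0 RPM in hypercapnia (log2 fold change 1.05, SE 0.36, limma p = 0.0303, exact permutation p = 0.0286). Herc6, the ligase that attaches ISG15 in mice, was at 1.61, 1.03 and 2.48 RPM in room air and at 7.10, 6.13, 3.12 and 2.84 RPM under high CO2 (1.06, SE 0.36, limma p = 0.0272, exact permutation p = 0.0571). Both had groups that did not overlap, against 7.72% of such genes, although neither passed adjustment (limma adjusted p 0.915). Ube2l6, the conjugating enzyme between them, was at 62.7, 58.7 and 42.5 RPM in room air and at 110, 120.4, 74.3 and 57.2 RPM under high CO2, and was not called (limma p = 0.0755, exact permutation p = 0.143). The level of Isg15 was not analysed here.

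Of 15 interferon-stimulated genes measured, 7 were called higher and 0 lower, where 2.66% of all genes averaging at least 1 RPM were called higher. This list was also chosen with earlier results of these data known, so these shares are no independent test of it. A count without NC3 was made for neither list. Groups did not overlap in 8 of them, against 7.72% of such genes. Their median log2 fold change was 1.53, beside 0.16 over all genes averaging at least 1 RPM, and 0 passed adjustment in limma (lowest adjusted p 0.650). Summed, they reached 340.1, 489 and 302 RPM in room air and 1405, 1686, 797 and 589 RPM under high CO2. HC1 and HC2 were thus the highest libraries both for this sum and for Usp18, and NC3 was the lowest for both. Adgre1, a macrophage gene, was also called higher (log2 fold change 1.31), alone among the 12 macrophage markers. Its part in the Usp18 difference was not tested.

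**Figure D2:**
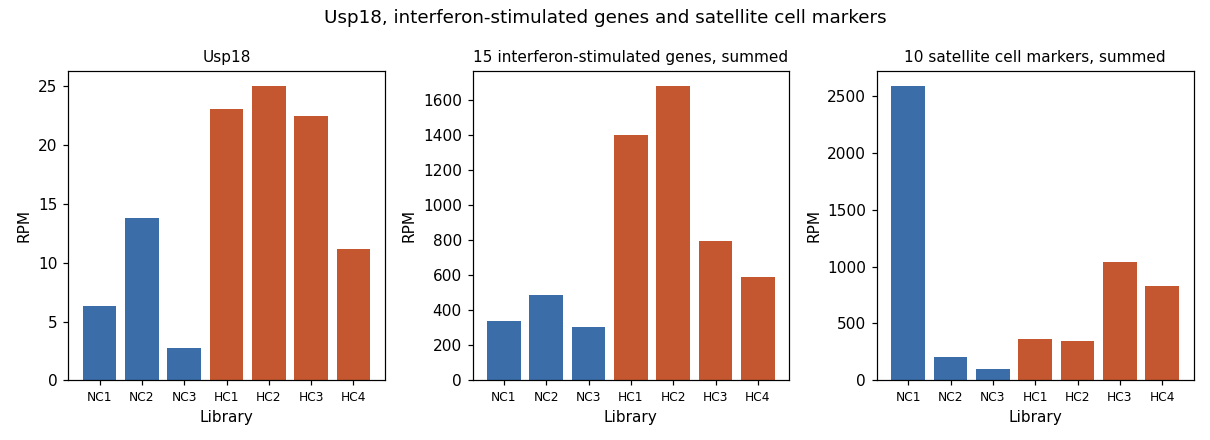
RPM (y axes, from 0) in each of the 7 libraries for Usp18, for 15 interferon-stimulated genes summed and for 10 satellite cell markers summed, with normocapnia in blue and hypercapnia in orange. Usp18 and the interferon sum are highest in HC2, while the satellite sum is highest in NC1.

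Groups that did not overlap were found in 3 of the 43 members at a mean of 10 RPM or more (Usp25, Usp3 and Usp33), against 9.62% of all genes at that level. By direction 1 was higher and 2 were lower, against 4.96% and 4.67%. Under median-of-ratios scaling 7 members had groups apart (Otub1, Otud4, Usp22, Usp25, Usp3, Usp34 and Usp54), against 9.1%, and Usp33 was no longer among them. None of Usp25, Usp3 and Usp33 passed the fold threshold.

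Usp25, a deubiquitinase with a muscle isoform and known targets in endoplasmic reticulum quality control and innate signaling, stood at 240.0, 188 and 152 RPM in room air and at 297, 262, 257 and 316 RPM under high CO2. The lowest hypercapnia library was above the highest normocapnia library. Means were 193 ± 44.1 RPM (SD, n = 3) and 283 ± 28.4 RPM (SD, n = 4), with a log2 fold change of 0.57 (SE 0.17, 95% interval 0.14 to 0.99, limma p = 0.0183, adjusted p 0.911, exact permutation p = 0.0286). It passed the fold threshold without NC1 (0.73), HC2 (0.60) or HC3 (0.61), and fell to 0.41 without NC3. The unadjusted limma p of Usp25 was 0.0537 without NC2 and 0.0739 with genes under 1 RPM left out. In edgeR and DESeq2 its unadjusted p did not fall under 0.05.

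Usp3 and Usp33 were on the lower side. Usp3, which removes ubiquitin from histones H2A and H2B, was at 63.4, 73.2 and 54.2 RPM in room air and at 47.4, 44.8, 47.0 and 43.0 RPM under high CO2. The hypercapnia libraries lay within a narrow band (45.5 ± 2.06 RPM, SD, n = 4) below all of normocapnia (63.6 ± 9.48 RPM, SD, n = 3). Its log2 fold change was -0.46 (SE 0.10, 95% interval -0.73 to -0.20, limma p = 0.00544, exact permutation p = 0.0286), and its adjusted p of 0.752 was the lowest of the family in limma. It was called lower with median-of-ratios scaling (-0.61), in filtered edgeR (-0.59) and in DESeq2 (-0.64), while the limma p was 0.102 with genes under 1 RPM left out. The unadjusted p of Usp3 was 0.0787 in unfiltered edgeR and 0.0563 in limma with the replicate block. Usp33, known for its part in receptor traffic and in cell migration, was at 35.2, 32.6 and 33.7 RPM in room air and at 27.4, 26.0, 31.6 and 25.0 RPM under high CO2 (log2 difference -0.29, SE 0.09, limma p = 0.0157, exact permutation p = 0.0571). HC3 came within about 1 RPM of NC2. Beside that exact test, the unadjusted p of Usp33 was 0.0817 with median-of-ratios scaling, 0.268 with genes under 1 RPM left out, 0.155 in filtered edgeR and 0.125 in DESeq2.

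Usp6nl, the activator of RAB GTPases, was at 33.5, 42.3 and 42.3 RPM in room air and at 22.9, 24.7, 35.6 and 27.9 RPM under high CO2. HC3 lay above NC1, so the groups overlapped. The log2 fold change was -0.50 (SE 0.18, 95% interval -0.94 to -0.06, limma p = 0.0316, exact permutation p = 0.0857).

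**Figure D3:**
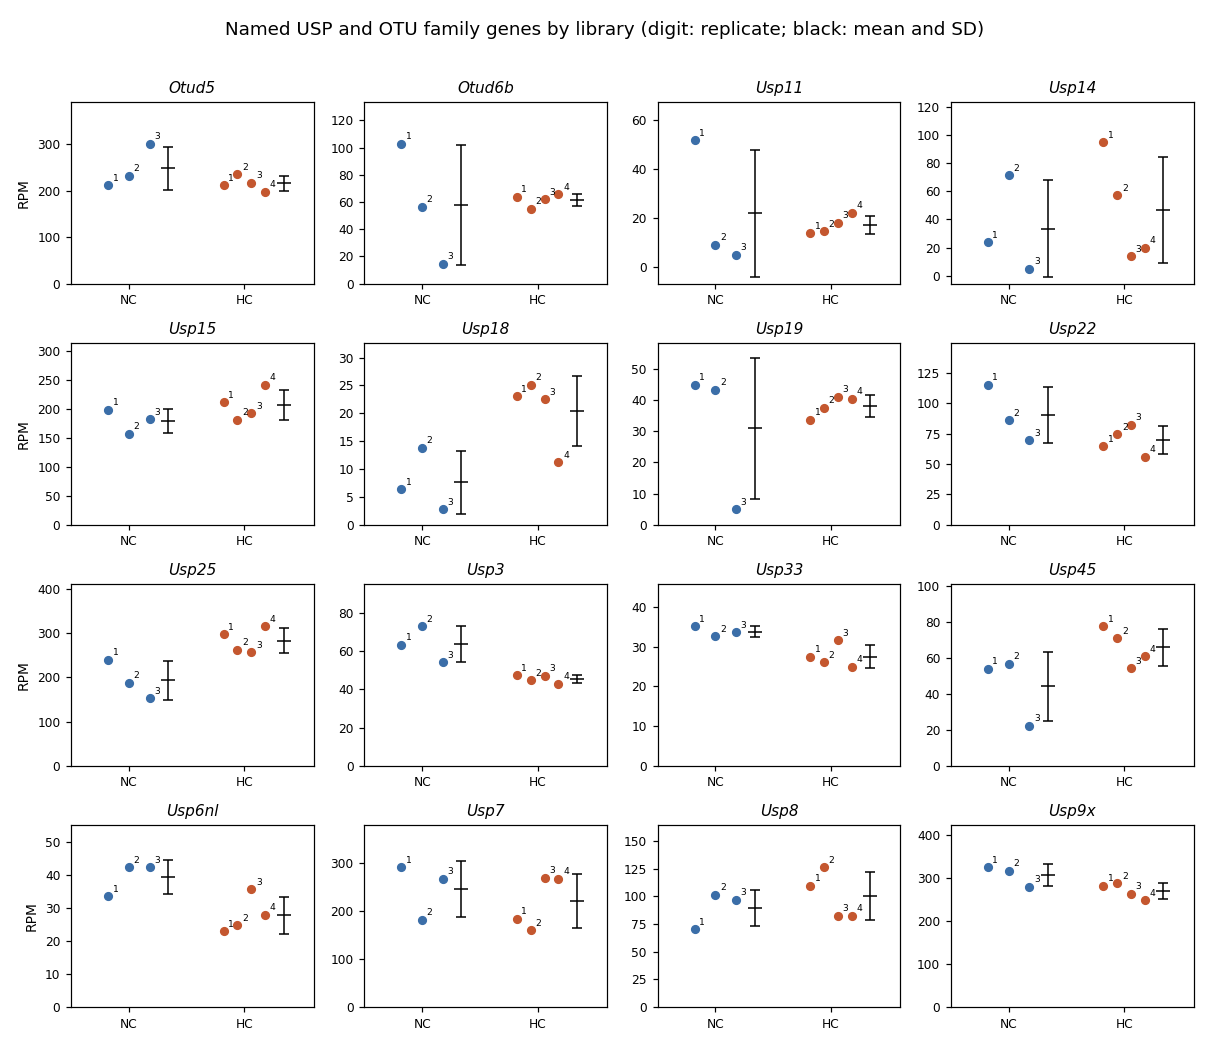
RPM (y axes) of the 16 named genes in normocapnia (NC, blue, n = 3) and hypercapnia (HC, orange, n = 4), with the replicate number at each point and the mean and SD in black. Usp25, Usp3 and Usp33 are the panels in which the groups do not overlap.

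Both promoters of this trio held in the RefSeq promoter table (GRCm38.p6) are shown for reference, from 250 bases before to 50 after the annotated start, 5′ to 3′ on the strand of the gene. Capitals mark GGGCGG or its reverse complement, the core of the GC box bound by SP factors. Both are given because the fold changes of these genes differ in sign. The window of Usp3 is chr9:66593066-66593365 on the minus strand and that of Usp25 is chr16:77013819-77014118 on the plus strand.
Usp3: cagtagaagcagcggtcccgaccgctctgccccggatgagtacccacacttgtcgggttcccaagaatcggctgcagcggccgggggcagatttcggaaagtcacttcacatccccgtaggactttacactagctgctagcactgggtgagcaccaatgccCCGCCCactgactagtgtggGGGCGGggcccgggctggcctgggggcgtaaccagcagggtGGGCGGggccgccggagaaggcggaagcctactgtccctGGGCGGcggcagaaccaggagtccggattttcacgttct
Usp25: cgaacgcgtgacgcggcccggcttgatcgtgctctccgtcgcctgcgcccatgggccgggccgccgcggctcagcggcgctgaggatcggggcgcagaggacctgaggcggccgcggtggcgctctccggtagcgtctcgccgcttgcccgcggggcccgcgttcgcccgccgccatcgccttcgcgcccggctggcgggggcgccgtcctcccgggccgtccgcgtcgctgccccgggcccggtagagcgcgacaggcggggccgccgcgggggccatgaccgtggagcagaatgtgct
The Usp3 window holds 4 such matches and the Usp25 window 0, with a GC content of 65.0% and 79.0%. Among 52 promoters of 48 members in the table, 33 hold GGGCGG on either strand (63.5%), beside 35.7% of all 32851 promoters, and their median GC content is 63.7% beside 52.7%. The interferon response element, searched on both strands as GAAA and GAAA with any 2 bases between them, is in 0 of the 52 member promoters, in 6 of 13 promoters of 12 of the interferon genes measured and in 3.44% of all. The table used here holds no entry for Usp18 or Usp33.

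The members with the highest mean RPM were Usp9x, Usp25, Usp7, Otud5 and Usp15. Usp9x, an X-linked enzyme that stabilizes components of TGF-beta, WNT and apoptosis pathways, had the narrowest range of these, at 324, 316 and 278 RPM in room air and at 281, 287, 263 and 247 RPM under high CO2 (log2 difference -0.18, SE 0.08, 95% interval -0.38 to 0.01, limma p = 0.0594, exact permutation p = 0.143). NC3, the lowest normocapnia library, overlapped HC1 and HC2. Its Y-linked copy Usp9y gave 0.138 RPM in NC3 and 0 in the other 6 libraries, HC3 and HC4 included although these carried Ddx3y. Reads of 3 or fewer are at the floor, so no level of Usp9y can be given.

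Usp7, the deubiquitinase of MDM2 and p53, was at 292, 181 and 267 RPM in room air and at 184, 160.1, 269 and 268 RPM under high CO2 (log2 difference -0.17, SE 0.27). Libraries of each group fell at both ends, with NC2, HC1 and HC2 low and the rest high. Otud5, an OTU enzyme that trims ubiquitin chains in innate signaling, was at 211, 232 and 300.1 RPM in room air and at 211, 235, 217 and 197 RPM under high CO2 (-0.19, SE 0.13), with NC3 alone above the others. Usp15, which acts on TGF-beta receptors and on antiviral sensors, was at 199, 157 and 183 RPM in room air and at 212, 182, 193 and 242 RPM under high CO2 (0.20, SE 0.13). None of these 3 passed the test (exact permutation p = 0.629, 0.286 and 0.286), and their intervals allow log2 differences from -0.85 to 0.51, from -0.52 to 0.15 and from -0.12 to 0.52.

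In several members single libraries stood further apart than the groups. Usp14, which trims ubiquitin on the proteasome itself, had a 19.1-fold range over libraries, at 23.7, 71.4 and 4.96 RPM in room air and at 94.8, 57.2, 13.7 and 19.6 RPM under high CO2. NC2, HC1 and HC2 were high and the rest low, so hypercapnia was split into a high and a low pair (log2 fold change 0.71, SE 1.09, limma p = 0.541, exact permutation p = 0.60). Usp11, an X-linked enzyme linked to TGF-beta signaling and DNA repair, was at 51.7, 8.98 and 4.96 RPM in room air and at 13.7, 14.6, 18.0 and 22.0 RPM under high CO2 (0.28, SE 0.77). Its highest library was NC1 and its lowest NC3, as for the summed satellite cell markers, and HC3 and HC4 came next in both. The part of satellite cells in its level was not tested beyond a fit with the satellite score as a covariate, which left a log2 fold change of -0.01. Without NC1, Usp11 was called higher (1.21).

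Usp19, known to rise in wasting muscle and anchored in part at the endoplasmic reticulum, was at 44.8, 43.3 and 4.89 RPM in room air and at 33.6, 37.4, 41.0 and 40.4 RPM under high CO2. NC3 alone was low, and without it the log2 fold change turned from 0.77 to -0.21. Otud6b, an OTU enzyme tied to protein synthesis, was again lowest in NC3, at 103, 56.3 and 14.7 RPM in room air and at 63.9, 55.1, 61.9 and 65.7 RPM under high CO2, and turned from 0.46 to -0.30. Usp45, which acts on the DNA repair nuclease ERCC1, was at 54.0, 56.7 and 22.3 RPM in room air and at 77.8, 71.0, 54.3 and 61.1 RPM under high CO2 (log2 difference 0.66, SE 0.36, limma p = 0.121, exact permutation p = 0.0571). Only HC3 fell among the normocapnia values. Usp22, the histone deubiquitinase of the SAGA complex, was at 115, 86.1 and 69.4 RPM in room air and at 64.6, 74.6, 82.5 and 56.1 RPM under high CO2 (-0.36, SE 0.21). Usp8, an enzyme of endosomal sorting, was at 70.3, 101 and 96.8 RPM in room air and at 109, 126, 82.3 and 82.5 RPM under high CO2 (0.16, SE 0.22). Neither of these last passed the test (exact permutation p = 0.20 and 0.571).

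NC3 was the lowest library in 25 of the 43 members at 10 RPM or more (58.1%), beside 49.5% of all genes at that level. NC1 was the highest in 21 (48.8%), beside 30.3% of all. With median-of-ratios scaling NC1 was the highest in 7 and the lowest in 5, and NC3 was the highest in 17 and the lowest in 18. The median SD of log2(RPM + 1) of these members was 0.59 in normocapnia and 0.23 in hypercapnia, and 0.66 and 0.23 over all such genes. The wide normocapnia spread was thus shared with the rest of the transcriptome.

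The counts depended on single libraries of both groups. Without NC1, 7 members were called higher (Usp1, Usp11, Usp21, Usp25, Usp28, Usp43 and Usp46) and Usp6nl lower, where 6.25% and 2.07% of all genes were called. Without NC2, Usp18 was called higher and Otud3 and Usp34 lower, where 2.8% and 2.23% of all genes were. Without NC3, 0 members were called higher and Otud4 and Usp42 lower, where 0.982% and 1.59% of all genes were. Members with groups apart were 9 without NC1 (31.1% of all genes at that level), 8 without NC2 (25.8%) and 14 without NC3 (19.2%), against 3 with every library. Groups that lie apart stay apart when a library is left out, so these counts are no sign of stability. Without HC1 0 members were called, where 0.965% of all genes were called higher and 0.644% lower. Without HC2 Usp25 alone was called, on the higher side (0.903% higher, 0.669% lower). Without HC3 Usp25 was called higher and Usp6nl lower (1.23% and 1.16%), and without HC4 Usp18 alone was called, on the higher side (1.16% and 0.836%).

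Other ways of fitting gave few members as well. Usp18 was the only member called higher with genes under 1 RPM left out (2.76% of all genes), with median-of-ratios scaling (1.32%), in filtered edgeR (2.21%), in edgeR without a filter (1.7%), in DESeq2 (2.49%) and with the replicate block (1.47%). With Xist as a covariate Usp25 and Usp45 joined it (3.4%), and with the satellite score as a covariate 0 were called higher (2.32%), although the log2 fold change of Usp18 was 1.49 there. On the lower side 0 were called with the filter (1.7%) or the block (1.03%). Usp3 and Usp54 were called lower with median-of-ratios scaling (1.23%), Usp3 and Usp34 in filtered edgeR (3.82%), Usp34 in unfiltered edgeR (2.68%), and Usp3, Usp34, Usp54 and Usp6nl in DESeq2 (3.76%). Otud3 and Usp34 were called lower with Xist as a covariate (2.1%) and Usp54 with the satellite score (1.98%). At any fold, 1 of 51 members had an unadjusted p under 0.05 with the filter (4.49% of all genes), 3 of 53 in filtered edgeR (6.06%), 2 of 62 in unfiltered edgeR (4.38%) and 12 of 62 with Xist as a covariate (8.42%).

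**Figure D4:**
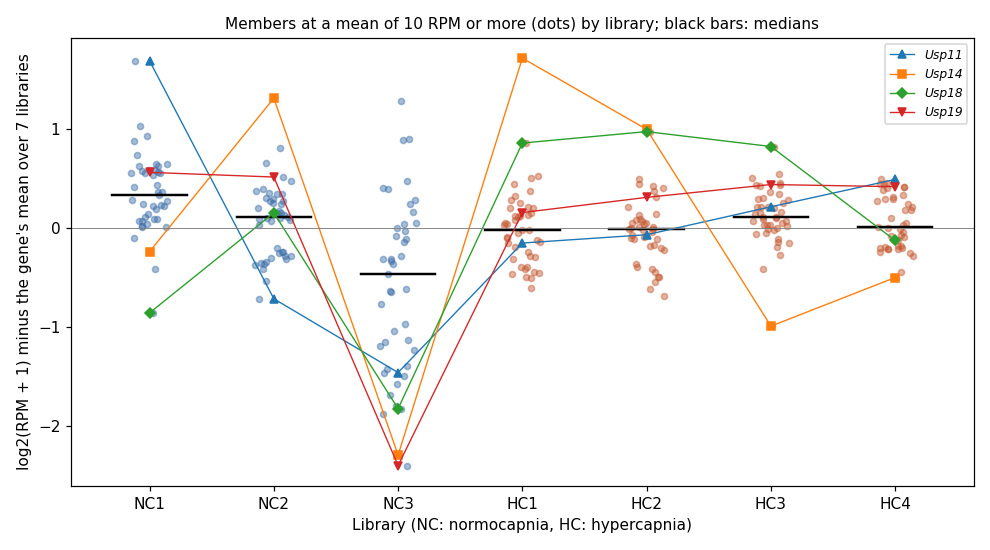
Deviation of log2(RPM + 1) from each gene's mean over the 7 libraries (y axis) for the 43 members at a mean of 10 RPM or more, by library (x axis), with black bars at the median and lines for Usp11, Usp14, Usp18 and Usp19. NC3 reaches the lowest values and NC1 has the highest median.

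By known role, the other members gave no further calls. Of 7 enzymes linked to the proteasome and protein turnover (Usp5, Usp13, Usp14, Usp19, Usp25, Usp28 and Usp38), 6 had a fold change above 0 and 0 were called (median log2 fold change 0.57), where 7765 of 12504 genes averaging at least 1 RPM lay above 0. This direction rested on NC3, since without it 2 of the 7 lay above 0 and 5 below (median -0.21). Of 9 tied to p53 and DNA damage, 3 lay above 0 and 6 below (median -0.17), with Usp47 at the low end (-0.42, and -0.0965 without NC3). Of 7 histone and chromatin enzymes 5 lay below 0 (median -0.26), while Usp21 was at 0.96 with an interval from -0.34 to 2.26 (0.39 without NC3). Usp44, counted among the 7 and in the median, had 0 reads and a fold change of 0. Of all 12504 genes averaging at least 1 RPM, 4739 lay below 0. The list of innate and NF-kB enzymes, which holds Usp18, had 4 above and 6 below 0 (median -0.05). Among 6 enzymes of TGF-beta, WNT and related signaling Usp34, an axin deubiquitinase, had the lowest fold change of the family (-0.76, interval -1.72 to 0.20). It was at 126, 93.8 and 265 RPM in room air and at 76.7, 70.3, 107 and 95.4 RPM under high CO2, with NC3 far above the rest, and without NC3 its log2 difference was -0.33. Of 7 enzymes of endosomes and mitochondria 4 lay above and 3 below 0 (median 0.00). The remaining 13, which include the clock-controlled Usp2 (-0.38, SE 0.35) and the splicing factor Usp39, which is also known to lack deubiquitinase activity (0.25, SE 0.33), had a median of 0.25. Without NC3 the median of these 13 was -0.0647, and those of the other lists, the proteasome list included, ran from -0.33 to -0.0979, beside -0.0673 over all genes averaging at least 1 RPM.

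The lower end of the table held 8 members between 1 and 10 RPM and 11 below 1 RPM on average. Among the latter, Usp44, an enzyme of the spindle checkpoint, had 0 reads in all 7 libraries, which allows up to 0.128 to 0.207 RPM per library for counting error alone. Usp17la and Usp17lb, near-identical genes of a multicopy family whose reads cannot be parted with certainty, did not exceed 0.134 RPM. Usp51, also of these 11, and Usp27x, at a mean of 1.85 RPM, are related in sequence to Usp22. Whether their reads can be parted from those of Usp22 was not tested, so their values are uncertain. Otud6a reached 2.84 RPM in HC4, the highest value of these 11.

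For comparison, 33 genes outside the rule were measured, from the UCH, MJD, JAMM, MINDY and ZUFSP families and the remaining USP and OTU genes. Some of these belong by protein fold and are not known as deubiquitinases, among them Eif3f, Eif3h, Prpf8, Psmd7, Cops6, the NEDD8 protease Cops5, the SUMO protease Uspl1 and the inactive Fam105a. Called higher were 0 and lower 2, against 2.1% of all genes averaging at least 1 RPM, and both were named after their values were seen. Yod1, an OTU enzyme that works with the p97 ATPase, was at 29.3, 14.2 and 20.8 RPM in room air and at 11.9, 13.0, 14.9 and 12.0 RPM under high CO2 (log2 difference -0.63, SE 0.24, limma p = 0.0444, exact permutation p = 0.0571). HC3 lay above NC2. Uchl4 was at 11.2, 15.6 and 14.2 RPM in room air and at 7.19, 6.63, 10.4 and 10.6 RPM under high CO2 (-0.61, SE 0.21, limma p = 0.0290, exact permutation p = 0.0571) with groups apart. It is close in sequence to Uchl3, so reads of the pair may not be separable. Neither passed adjustment (limma adjusted p 0.915). Of 11 genes for partners of USP enzymes 0 were called and 2 had groups apart, both lower, against 7.72% of all genes averaging at least 1 RPM. Atxn7, a subunit of the SAGA module that holds Usp22, was at 20.2, 37.1 and 19.1 RPM in room air and at 15.4, 18.3, 18.4 and 14.1 RPM under high CO2 (-0.54, SE 0.26, limma p = 0.0848, exact permutation p = 0.0286). Wdr48, the activator of Usp1, Usp12 and Usp46, was at 19.3, 18.4 and 21.2 RPM in room air and at 15.8, 18.0, 17.5 and 15.6 RPM under high CO2 (-0.22, SE 0.07, limma p = 0.0259, exact permutation p = 0.0571), with groups apart but under the fold threshold.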

How the data were processed

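RNA of GFP-positive cells (normocapnia, 3 libraries, and hypercapnia, 4) was read by the authors with an Ion AmpliSeq mouse transcriptome panel on an Ion S5 Plus. The authors deposited RPM, reads scaled to a common library total. The submitters' processing notes name the Transcriptome Analysis Console; for the aligner and the build of the genome, nothing was given in the sources used here, and the only coordinates printed are those of 2 RefSeq promoter windows (GRCm38.p6). Conditions came from the treatment labels. RPM values were whole multiples of 1 read within 0.05 reads (100% of values), which gave library totals and whole reads.

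Limma 3.58.1 (R 4.3.3) was fitted to log2(RPM + 1) for 23930 genes, none filtered out. Fold changes on this scale understate those of low genes. Alternatives were pseudocounts of 0.1 and 5, leaving out genes with a mean under 1 RPM, scaling by median of ratios, edgeR 4.0.16 and DESeq2 1.42.0 on whole reads, a replicate block and leaving out each library. Covariates (Xist, and the satellite score, the mean log2(RPM + 1) of its markers) were added after values had been seen. Recovery and limma were tested on simulated data. Members and lists were chosen with earlier results of these data known. Named were members called, members with groups apart at 10 RPM or more, the 5 most abundant, the 3 with the widest range at 10 RPM or more, and the most abundant and smallest-p member of each role list. Intervals on reads cover counting error only.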

Additional observations from a re-analysis of the deposited data

Results flagged for a closer look

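Of the 16 named members, 1 had a hypercapnia library far from the other 3. Usp18 in HC4 was at 11.2 RPM, and its gap to the next library took 0.863 of the range of the group on log2(RPM + 1), above the limit of Dixon's test for 4 samples. Chance alone gives such a gap in about 1 of 20 groups. The sum of the interferon-stimulated genes was also lowest in HC4 among the hypercapnia libraries (589 RPM). No cause was tested.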

How the results depend on the processing

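Usp18 kept its direction in every fit and its call in 11 of 17 alternatives. Members called higher were 1 in each fit that used every library without a covariate, 3 with Xist as a covariate (Usp18, Usp25 and Usp45), 0 with the satellite score as a covariate, and 0 to 7 when a library was left out. Members called lower, 0 in limma, were 2 with median-of-ratios scaling (Usp3 and Usp54), 2 in filtered edgeR (Usp3 and Usp34), 1 in edgeR without a filter, 4 in DESeq2 (Usp3, Usp34, Usp54 and Usp6nl), 2 with Xist and 1 with the satellite score as a covariate, and 0 to 2 when a library was left out. The shares of all genes called in each fit stand in the results above, except for the pseudocounts of 0.1 and 5 RPM, where they were not counted. Members with an unadjusted p under 0.05 went from 5 to 1 with the filter, 3 and 2 in edgeR with and without a filter, 12 with Xist as a covariate and 3 to 10 when a library was left out. For the fits with a library left out, the share of all genes at any fold was not counted, so the 3 to 10 cannot be set against it. Members with groups apart went from 3 to 7 with median-of-ratios scaling and 3 to 14 when a library was left out. The median log2 fold change of the members ran from -0.17 to 0.14 when a library was left out, within the pooled SD of the library medians (0.50). The cause of these shifts was not tested.

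Direction turned for Usp11 in edgeR (-0.21 filtered, -0.24 unfiltered), DESeq2 (-0.25), without NC3 (-0.37) and with the satellite score (-0.0074), for Usp8 in DESeq2 (-0.036) and without NC1 (-0.0072), and without NC3 for Otud6b (-0.30), Usp14 (-0.23) and Usp19 (-0.21). Over all libraries left out in turn, values reached 1.21 for Usp11, 0.25 for Usp8, 1.06 for Otud6b, 1.57 for Usp14 and 1.27 for Usp19. Replicate numbers did not pair the libraries (correlations of deviations -0.35, 0.50 and -0.04). With the replicate block 1 member was called higher (Usp18) and 0 lower.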
